A study of Mus musculus with 2 samples.

Results

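Mesothelin, the mucins and the Clca family are secreted or surface proteins of mucus-producing and other lining epithelia, and 10 of their genes were followed in the ureters of Pparg-cKO and control mouse embryos: Msln, Muc1, Muc4, Muc16, Muc20, Clca1, Clca2, Clca4, and the secretory cell genes Agr2 and Tff3. Members were taken by gene name from the non-control spots of the arrays, with every probe of each gene. Probes were found for 8 of the 10 names, 10 probes in all, among 39429 probes for 29924 gene names. Muc16 and Clca4 had no probe under that name, although 1 probe named only by a transcript identifier was described in the design as mucin 16. The genes were chosen with the results of this comparison known, so their changes are given as a description and were not tested.

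RNA came from pooled ureters of NMRI embryos at embryonic stage E18.5 and was compared on 2 two-colour oligonucleotide arrays. The mutant pools had the genotype Pax2-cre/+; Pparg(fl/fl) (Pparg-cKO) and the control pools Pparg(fl/?), in which the second allele is not stated. Both genotypes therefore carried a floxed Pparg allele, and by the study's methods the controls were littermates without the cre transgene. The Pax2-cre transgene is active in the nephric duct and its derivatives, among them the ureteric epithelium (UE), so muscle and connective tissue of the ureter keep the gene. Replicate 1 compared a female Pparg-cKO pool with a female control pool, and replicate 2 did the same for male pools with the dyes exchanged. Sex, dye orientation and array changed together and cannot be told apart. Nothing says how far the pools on an array share litters, so the spread between the arrays may be partly technical.

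Mesothelin is a lipid-anchored surface protein of mesothelium and of several epithelia, and it binds the large membrane mucin MUC16. Membrane mucins such as MUC1, MUC4 and MUC20 form a coat on the luminal face of epithelial cells, and the trefoil peptide TFF3 and the secreted CLCA1 are released together with gel-forming mucins by goblet cells. AGR2 is a disulfide isomerase of the endoplasmic reticulum that is needed for the folding of mucins. The urothelium of the ureter, layered into B (basal), I (intermediate) and S (superficial) cells, is not a classical mucus-secreting tissue.

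Each level below rests on 1 or 2 short oligonucleotides. For the 4 genes with a signal of at least 100 and for the mucin 16 probe, bases 31 to 60 of each probe of 60 bases are shown 5′ to 3′ as the design gives them, because the reported signals are hybridisation to these oligonucleotides. Capitals mark AATAAA, the polyadenylation signal hexamer (overlapping copies in the mucin 16 probe), which was present in 12.6% of all 39429 probes.
Msln: ggactcttgaactcAATAAAcagtggcata
Clca1: gggggcggtatagtaacactcgaagctgta
Agr2: gacttgcagattacagtacagtttaatgtt
Muc20 (brighter probe): tcctctgcctggttattgtatttcggtaaa
Muc20 (dimmer probe): tctgagactgaactattatcAATAAAttct
mucin 16 probe: ggttcaaagAATAAATAAAccacattggtc
On build mm9 these probes lie at chr17:25885569-25885628 on the minus strand (Msln), chr3:144667558-144667617 on the minus strand (Clca1), chr12:36730506-36730565 on the plus strand (Agr2), chr16:32786143-32786202 and chr16:32777512-32777571 on the minus strand (Muc20), and chr9:18299899-18299958 on the minus strand (mucin 16). The dim members were measured at chr3:89034965-89035024 on the plus strand (Muc1), chr16:32782278-32782337 and chr16:32774896-32774955 on the plus strand (Muc4), chr3:144733937-144733996 on the minus strand (Clca2) and chr17:31262279-31262338 on the minus strand (Tff3). Exon structure was not analysed here. The probes of Clca1 and Agr2 and the brighter Muc20 probe shared no run of 15 or more bases with a probe of another gene, and the longest such run of the Msln probe was 18 bases, shared with a probe of Ttll7. The name Clca1 on the array matched the RefSeq gene of that symbol by accession.

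The direction of the ratios rests on the deposited values. The labels assign the red dye to the control pool on replicate 1 and to the Pparg-cKO pool on replicate 2, but the deposited fold changes, whose titles put Pparg-cKO first, have the opposite sign on both arrays (across 39428 probes, r = 0.989 and -0.993 against log2 red over green). Higher and lower follow the deposited sign, which is also the direction of the study's text and of its tissue sections, where no dye labels enter, and is therefore the likely one. Should the dye labels hold instead, both words swap and the sizes stay.

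Msln, Clca1 and Agr2 had clearly more signal in both Pparg-cKO pools, by 3.92- to 5.87-fold. For the dim controls of Clca1 the size rests on the background offset, and it was 9.19-fold without an offset. Muc20 had slightly more, by 1.46-fold. Muc1, Muc4, Clca2 and Tff3 were dim in all 4 pools, with processed signals of 19.0 or less. The fold rule, after the study's filter, asked for a change of 1.5-fold or more with the same sign on both arrays and for 100 or more units of processed signal in the brighter pool of each. It was met by 3 of the 8 measured members, or 3 of the 4 that reached 100 units, all higher, against 1.84% of the 14015 genes that reached 100 units (0.792% higher and 1.05% lower). The members were picked from this same contrast, so nothing is read from that difference. Muc20 lay just outside the rule, with 1.39-fold (female) and 1.54-fold (male), and Agr2 was the member nearest to it on the inside, at 4.30-fold and 3.57-fold. On both arrays, 7 members exceeded background clearly in 1 pool or both, and of these 5 were higher on both arrays, 1 was lower on both and 1 differed in sign, against 26.6%, 26.2% and 47.2% of all genes tested. Their median log2 ratio was 0.55, beside 0.01 over all 22499 genes that met the same condition. In pooled tissue, more cells of a type and more RNA per cell cannot be told apart.

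**Figure D1:**
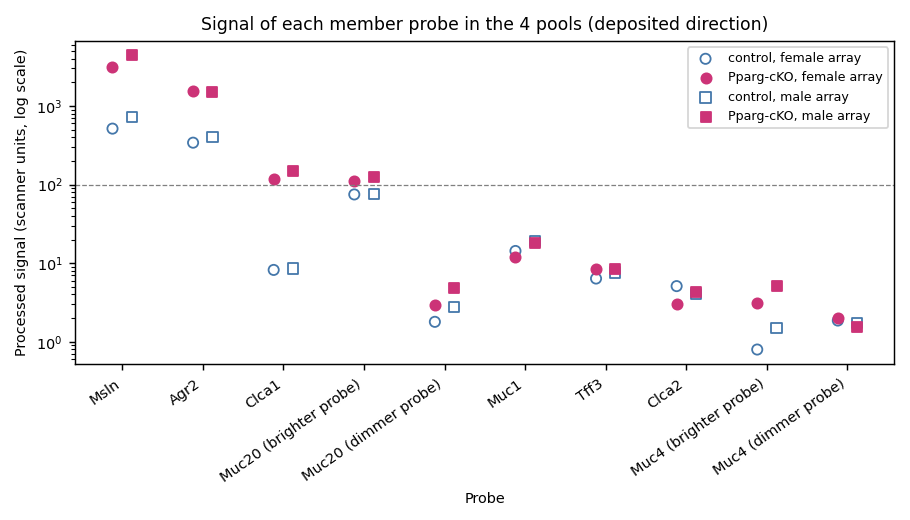
Processed signal (scanner units, log scale) of the 10 member probes in the female (circles) and male (squares) pools, open blue for control and filled red for Pparg-cKO, with a dashed line at 100. Msln, Agr2, Clca1 and the brighter Muc20 probe have both Pparg-cKO pools above both control pools. So do, at dim levels, the brighter Muc4 probe, the dimmer Muc20 probe and Tff3. Levels of different probes are not comparable.

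Msln had a processed signal of 3085 in the female Pparg-cKO pool against 514 in the female control pool. In the male pools the signals were 4384 and 726. Both Pparg-cKO pools were far above both control pools, without overlap. After background correction and loess normalisation the female array gave a log2 ratio of Pparg-cKO over control of 2.48 and the male array 2.62, a mean of 2.55 ± 0.10 (SD, n = 2 arrays), or 5.87-fold. The 4 spots on each array spanned 2.26 to 2.70 and 2.45 to 2.79, so the arrays differed by less than their own spots did.

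The mucin 16 probe, for the binding partner of mesothelin, behaved differently. Its signal was 45.8 in the female Pparg-cKO pool, against 6.67 in the female control pool, and 7.57 against 5.50 in the male pools. A single pool thus stood apart, the female Pparg-cKO pool, with log2 ratios of 1.31 (female) and 0.06 (male). The spots did not overlap between the arrays, at 1.17 to 1.38 and -0.12 to 0.24, and whether sex, dye or a single pool set this could not be told apart.

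Mesothelial markers were examined beside Msln, since mesothelium covers the organs around the ureter and expresses it. Several of them showed the same single high pool as the mucin 16 probe. Bnc1, a zinc finger factor, read 17.5 in the female Pparg-cKO pool and 0.631 in its control, against 1.52 and 1.60 in the male pools. For Lrrn4, a surface protein of mesothelial cells, the female pools read 18.6 and 1.95 and the male pools 2.57 and 2.15. Rspo1, an enhancer of WNT signalling, read 138 and 63.8 in the female pools and 82.0 and 87.0 in the male pools. Gpm6a, a membrane glycoprotein, read 121 and 71.1 in the female pools and 77.7 and 90.3 in the male pools. These 4 markers were higher in the female Pparg-cKO pool than in the other pools, and in the male pools none of them differed by more than 0.14 on the log2 scale. Wt1, a transcription factor of mesothelium and mesenchyme, differed little on either array (log2 ratios of -0.05 and -0.14). Upk3b, which encodes a uroplakin found in both urothelium and mesothelium, was the 1 marker of 4 tested that passed, with a mean log2 ratio of -1.67 (limma, Benjamini-Hochberg adjusted p = 0.00884; 0.533 on the deposited table, at -1.77). The summed signal of the tested markers, carried mostly by Upk3b and Wt1, was 909 to 1141 in the Pparg-cKO pools and 1586 to 1772 in the controls. Upk3b made most of this difference, at 297 and 1013 in the female and 248 and 847 in the male Pparg-cKO and control pools. The study found it in S and I cells and reduced in the mutant. Of the rest, Rspo1 and Gpm6a were higher and Wt1 lower in the female Pparg-cKO pool, and all were lower in the male one. On the male array, where Bnc1 and Lrrn4 were not well above background on any spot of either pool, the log2 ratio of Msln was 2.62, as large as on the female array. Rspo1, Gpm6a, Wt1 and Upk3b were above background in both male pools and none of them was higher in the male Pparg-cKO pool. The part of mesothelial cells in the Msln and mucin 16 signals was not tested.

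**Figure D2:**
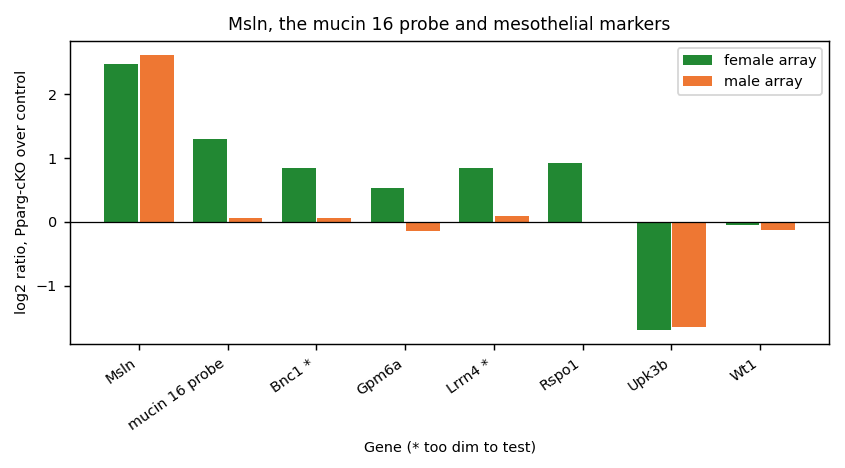
Log2 ratio of Pparg-cKO over control for Msln, the mucin 16 probe and 6 mesothelial markers on the female (green) and male (orange) arrays, with an asterisk for probes too dim to test. Msln is high on both arrays (2.48 and 2.62), whereas the mucin 16 probe, Bnc1, Gpm6a, Lrrn4 and Rspo1 are raised on the female array alone and Upk3b is low on both.

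Other genes tied to mesothelin or the membrane mucins were measured through 9 partners, namely the mesothelin-like gene Mslnl and receptors, ligands and a protease that act on or beside these proteins. None passed the limma test with Benjamini-Hochberg adjustment, which called 0.751% of all 22499 genes tested (0.382% higher and 0.369% lower) and was not applied to members. An unadjusted p under 0.05 was found for 2 of the 9, against 8.51% of all genes tested. Mslnl, the nearest relative of Msln, read 5.76 and 5.65 in the female Pparg-cKO and control pools and 11.6 and 4.96 in the male pools, a mean log2 ratio of 0.21 (adjusted p = 0.738). Lypd3, a surface protein of stratified epithelia that binds AGR2, was somewhat higher on both arrays (log2 ratios of 0.33 and 0.70, adjusted p = 0.325). The receptor Erbb2, which binds MUC4, and its partner Erbb3 had log2 ratios of 0.01 and 0.17 for the female pools, and 0.84 for the male pools in each case, and neither passed the test.

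Among the Clca genes measured, Clca1 was the one that met the fold rule. Its product is a secreted metalloprotease of goblet cell mucus. The signal was 116 and 147 in the female and male Pparg-cKO pools and 8.21 and 8.58 in the respective controls. Both Pparg-cKO pools were high and both control pools were close to background, the latter well above it on 4 of 4 female spots and 2 of 4 male spots. The female array gave a log2 ratio of 2.32 and the male array 2.63, a mean of 2.47 ± 0.22 (SD, n = 2 arrays), or 5.55-fold. This size depends on how background is treated, because the offset of 50 that was added to every channel shrinks ratios of dim spots. It was 9.19-fold without an offset and 15.7-fold on the scanner's own processed signals.

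Clca2, a membrane-anchored relative found in stratified and other epithelia, read 3.0 and 5.11 in the female Pparg-cKO and control pools and 4.30 and 4.04 in the male pools. The pools overlapped, and the female array gave a log2 ratio of -0.19 and the male array 0.04, a mean of -0.07 ± 0.16 (SD, n = 2 arrays). Clca2 and Clca1 are neighbours in a cluster on chromosome 3, with Clca4a, Clca4b, the pseudogene Clca4c-ps, Clca3b, Clca3a2 and Clca3a1 following in that order. Clca4a, with Clca4b the nearest in name to Clca4, read between 3.06 and 5.46 in the 4 pools, with a mean log2 ratio of -0.05 (adjusted p = 0.974). No spot of Clca4b, Clca4c-ps or Clca3b was well above background in any pool. At the other end of the cluster, Clca3a2 read 1310 and 1164 (female) and 1335 and 1148 (male), with a mean log2 ratio of 0.25 (adjusted p = 0.624). The brighter probe of Clca3a1 had a mean log2 ratio of 0.13 (adjusted p = 0.883) and the other probe 0.24, each with one array near 0. The neighbours on both sides of Clca1 thus had log2 ratios between -0.19 and 0.05, but both are dim and the offset shrinks such ratios. On the processed signals Clca2 was at -0.80 (female) and 0.14 (male), and Clca4a at -0.93 and 0.29. Of the 3 other Clca genes well above background in at least 1 pool per array, which include the dim Clca4a, 0 passed the limma test or had an unadjusted p under 0.05. Near-identical copies within this cluster may share signal on an array, although the Clca1 probe itself shared no run of 15 bases with another gene's probe.

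**Figure D3:**
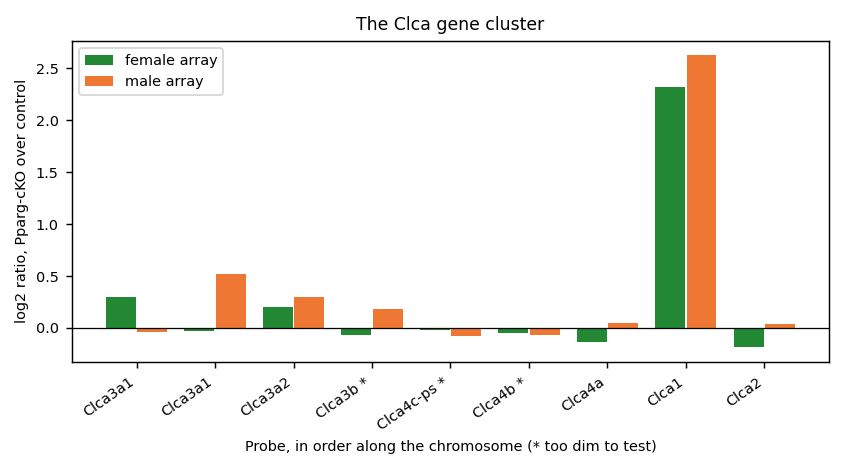
Log2 ratio of Pparg-cKO over control for 9 probes of the Clca cluster, in order along chromosome 3, on the female (green) and male (orange) arrays, with an asterisk for probes too dim to test. Clca1 is at 2.32 and 2.63, and every other probe lies between -0.19 and 0.52.

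Agr2 had a signal of 1561 in the female Pparg-cKO pool and 341 in the female control pool. In the male pools it was 1514 and 404. The Pparg-cKO pools were again both above the controls. The female array gave a log2 ratio of 2.10 and the male array 1.84, a mean of 1.97 ± 0.19 (SD, n = 2 arrays), or 3.92-fold, with 3 spots kept on the male array. Its close relative Agr3, a disulfide isomerase of ciliated cells, read 4.96 and 16.4 in the female and 6.01 and 14.1 in the male Pparg-cKO and control pools. Agr3 thus lay lower in both Pparg-cKO pools, with a mean log2 ratio of -0.52 that did not pass the test (adjusted p = 0.190). Without an offset it passed, at -0.94 (adjusted p = 0.00418), and on the processed signals it was 2.85-fold lower (adjusted p = 0.0789). Txndc12, another member of this isomerase family, had a mean log2 ratio of -0.09 (adjusted p = 0.926).

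Tff3 read 8.35 and 6.38 in the female Pparg-cKO and control pools and 8.51 and 7.63 in the male pools. The values were close together, and the log2 ratio was 0.09 and 0.04, a mean of 0.06 ± 0.03 (SD, n = 2 arrays). The probes of Tff1 and Tff2, the other trefoil peptides, were too dim to test.

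**Figure D4:**
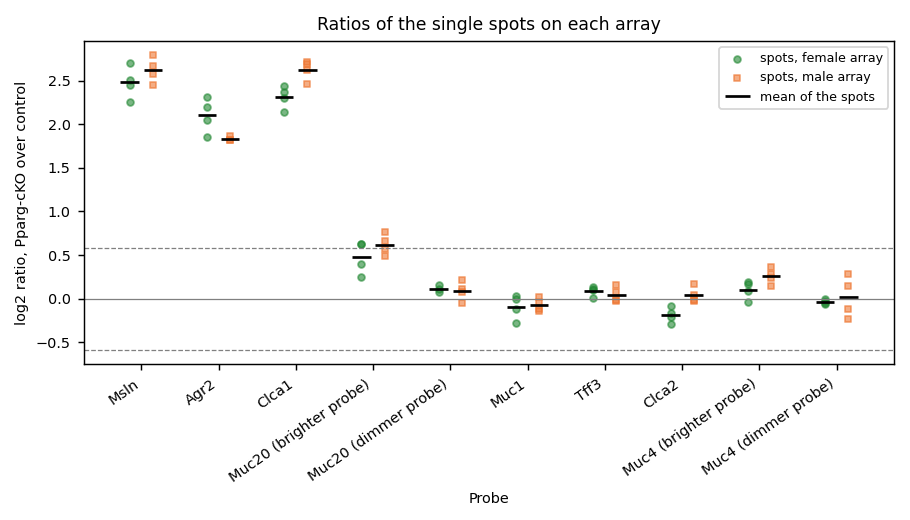
Log2 ratio of Pparg-cKO over control of every kept spot of the 10 member probes on the female (green circles) and male (orange squares) arrays, with black lines at the mean of the spots and dashed lines at 1.5-fold in either direction. All spots of Msln, Agr2 and Clca1 lie above 1.8, the spots of the brighter Muc20 probe lie on both sides of the line, and the other probes scatter around 0.

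Of the membrane mucins Muc1, Muc4 and Muc20, Muc20 was the one whose signal reached 100 on both arrays. The brighter of its probes read 112 in the female and 124 in the male Pparg-cKO pool, and 74.8 and 76.3 in the controls. The Pparg-cKO pools were above the controls, with log2 ratios of 0.47 and 0.62 and a mean of 0.55 ± 0.10 (SD, n = 2 arrays), or 1.46-fold. Its spots spanned 0.25 to 0.63 (female) and 0.49 to 0.76 (male). The dimmer probe, for another transcript of the gene, read 4.78 or less in every pool and had log2 ratios of 0.11 and 0.09. It was well above background only on 3 spots of the male Pparg-cKO pool. On the processed signals its mean log2 ratio was 0.74, beside 0.64 for the brighter probe, so a difference in size between the probes depends on the processing.

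Muc4 is the neighbour of Muc20 on chromosome 16, and their RefSeq spans on opposite strands overlap by 4973 bases in assembly GRCm38.p6. Its brighter probe read 3.15 and 0.798 in the female and 5.15 and 1.5 in the male Pparg-cKO and control pools. The Pparg-cKO pools were higher, but the probe was well above background only in the male Pparg-cKO pool, on 4 of 4 spots, so no bound on the difference is given. In the deposited direction this pool is the green channel of its array. There 77.3% of spots were well above background, against 67.6% in red, and the part of the dye in detecting dim probes was not tested. The female array gave a log2 ratio of 0.10 and the male array 0.26, and the dimmer probe, with log2 ratios of -0.04 and 0.02, was not well above background on any spot.

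Muc1 read 12.1 and 14.3 in the female Pparg-cKO and control pools and 17.8 and 19.0 in the male pools. It was marginally lower in Pparg-cKO on both arrays, with log2 ratios of -0.10 and -0.07, and the pools overlapped between the arrays. On each array at least 1 spot had the opposite sign, since the spots spanned -0.29 to 0.02 and -0.14 to 0.01.

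None of the other mucins passed the test. Of 12 named genes 11 had a probe and 9 were well enough above background to test, of which 4 were higher on both arrays, 2 lower and 3 of opposite sign, with a median log2 ratio of 0.05. The gel-forming mucins Muc2, Muc5ac and Muc5b were dim, with signals of 19.0 or less in all pools and adjusted p of 0.873, 0.973 and 0.974. Muc3a, a membrane mucin of the gut, had the highest mean log2 ratio of the list, 0.36 (adjusted p = 0.493), from a probe without a mapped position in the design. The endothelial sialomucin Emcn, the one bright gene of the list, had a mean log2 ratio of -0.05 (adjusted p = 0.967). An unadjusted p under 0.05 was found for 1 of the 9, against 8.51% of all genes.

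Genes of the goblet cell programme did not pass the test either, in 0 of 9 tested genes (2 with an unadjusted p under 0.05, against 8.51% of all genes), with a median log2 ratio of -0.02. Spdef, a transcription factor of goblet cells, read 15.8 and 20.5 in the female and 21.5 and 21.0 in the male Pparg-cKO and control pools (adjusted p = 0.941). Fcgbp, a mucus protein, and Ern2, a stress sensor of goblet cells, had mean log2 ratios of 0.51 (adjusted p = 0.386) and 0.41 (adjusted p = 0.483). Fcgbp passed without an offset, at 0.89 (adjusted p = 0.0239), and was 2.63-fold higher on the processed signals (adjusted p = 0.133). Both were higher on the male than on the female array, at 0.74 and 0.61 against 0.28 and 0.22. Xbp1, a regulator of the secretory pathway, was bright and had a mean log2 ratio of 0.11 (adjusted p = 0.883).

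Of 8 tested genes of airway and other mucosal secretions, 0 passed the limma test and 4 had an unadjusted p under 0.05, against 8.51% of all genes. The median log2 ratio was -0.21, with 3 genes higher on both arrays and 5 lower, against 26.6% and 26.2% of all genes tested. This includes Pigr at 0.17 from its brightest probe, which the design places on chromosome 19, while the gene lies on chromosome 1. With the dimmer Pigr probe on chromosome 1 (mean log2 ratio of -0.30), a choice made after seeing the data, 2 were higher and 6 lower and the median was -0.28. Bpifb1, a secreted lipid-binding protein of airway and mouth, met the fold rule, and it was lower. By the brightest probe of each gene, it was the only one of the mucin, Clca, trefoil, partner, goblet, secretory and transporter lists to do so. Its signal was 92.1 and 180 in the female and 114 and 196 in the male Pparg-cKO and control pools, a mean log2 ratio of -0.74 (adjusted p = 0.0796). Reg3g, an antibacterial lectin, read 2.24 and 25.8 in the female and 2.16 and 14.1 in the male pools, with a mean log2 ratio of -0.85 (adjusted p = 0.0870). It passed without an offset (-1.64, adjusted p = 8.07e-05) and on the processed signals (-3.19, adjusted p = 0.0205). In the Pparg-cKO pools Reg3g was well above background on 0 of 4 female and 1 of 4 male spots, so these sizes are not exact. Wfdc2, a secreted protease inhibitor, was higher in both Pparg-cKO pools, with log2 ratios of 0.72 and 0.54 (adjusted p = 0.137) from its brightest probe. Its other probe, also bright, was 1.55-fold (female) and 1.74-fold (male) higher and would meet the fold rule. The airway marker Scgb1a1 read 11.1 or less in all pools, and Scgb3a1 and Scgb3a2 were too dim to test.

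Among transporters of chloride and bicarbonate, which hydrate mucus, 0 of 6 tested genes passed (3 with an unadjusted p under 0.05, against 8.51% of all genes). Slc12a2, the basolateral chloride importer, had log2 ratios of 0.48 and 1.05 (adjusted p = 0.230), and Cftr, the apical chloride channel, 0.55 and 0.35 (adjusted p = 0.308). Kcnn4, a potassium channel, was lower on both arrays, at -0.74 and -0.40 (adjusted p = 0.250). Without an offset these 3 genes passed, at 0.76 for Slc12a2 (adjusted p = 0.0357), 0.67 for Cftr (adjusted p = 0.0432) and -0.80 for Kcnn4 (adjusted p = 0.0213), and none did on the processed signals. Ano1, a calcium-activated chloride channel whose surface level CLCA1 can raise, differed in sign, at -0.34 and 0.23 (adjusted p = 0.980).

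Epithelial content was examined because the members are expressed by epithelia. All 10 pan-epithelial markers were bright. Their log2 ratios had a median of 0.45, 7 were higher on both arrays (against 26.6% of all genes tested), and 6 had an unadjusted p under 0.05 (against 8.51%). Cldn3, a tight junction protein, was the only one to pass the adjusted test, with a mean of 2.24 (adjusted p = 0.00728; 0.533 on the deposited table, at 2.66). Epcam, a general epithelial adhesion protein, had log2 ratios of 0.41 and 0.48 (adjusted p = 0.273), and Cdh1, the main epithelial cadherin, had 0.07 (female) and 1.10 (male). Lower on both arrays were Krt18, a keratin of simple epithelia, at -1.04 and -0.54 (adjusted p = 0.173; 0.0225 without an offset), and Cldn4, another tight junction protein, at -0.25 and -0.09 (adjusted p = 0.773) by its brightest probe. The other Cldn4 probe, also bright, differed in sign, at -0.65 (female) and 0.22 (male). The summed signal of the list was 28042 in the female Pparg-cKO pool against 39738 in its control, and 37876 against 34286 in the male pools, so its direction differed between the arrays. Without Krt18, which carried most of the female difference, the other 9 summed to 18110 against 19023 and to 26655 against 17722. The log2 ratios of Msln, Clca1 and Agr2, at 1.84 to 2.63, were larger than those of every marker except Cldn3. Of the collecting duct markers, Fxyd4, a regulator of the sodium pump, passed the test with a mean log2 ratio of 2.38 (adjusted p = 0.00620; 0.533 on the deposited table, at 2.63), whereas the water channel Aqp2, the defining gene, read 28.1 or less in all pools with a mean of -0.15. Summed signals of that list were 708 to 804 in the Pparg-cKO pools and 228 to 253 in the controls, carried by Fxyd4. Without it the other 5 markers summed to 177 against 156 in the female and 211 against 150 in the male pools. Female reproductive tract markers were at 137 or less in signal. They summed to 166 against 116 in the female and 254 against 148 in the male Pparg-cKO and control pools. Their median log2 ratio was 0.41, with 0 of 5 past the test (3 with an unadjusted p under 0.05, against 8.51% of all genes). Emx2, at 0.37 (female) and 0.92 (male), passed without an offset (adjusted p = 0.0448). The part of these differences in the results of Msln, Clca1 and Agr2 was not tested.

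Genes outside the member list whose pair of log2 ratios lay nearest to that of Msln or Clca1 were listed by distance on the plane of the arrays, over 2 arrays only. With the offset of 50 the nearest to Msln were Arhgef38 (2.48 and 2.63), Spp1 (2.48 and 2.67), Tspan1 (2.28 and 2.54), Krt6a (2.31 and 2.30) and Fxyd4 (2.53 and 2.24). This likeness depends in part on the processing. On the processed signals Msln was 6.02-fold higher, Fxyd4 6.16-fold, Krt6a 6.45-fold and Spp1 7.01-fold, but Tspan1 8.46-fold and Arhgef38, whose controls were as dim as those of Clca1, 16.8-fold. For Clca1 the genes by this rule were Tspan1, Arhgef38, Spp1, Cldn3 (2.09 and 2.39) and Krt6a. Of these only Arhgef38 was near the 15.7-fold of Clca1 on the processed signals, so the other names depend on the processing. The processed signals differ in background correction and normalisation as well as in the offset, and the part of the offset alone was not tested for these genes. Spp1 encodes a secreted phosphoprotein, Tspan1 a tetraspanin and Krt6a a keratin of squamous and wounded epithelia.

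**Figure D5:**
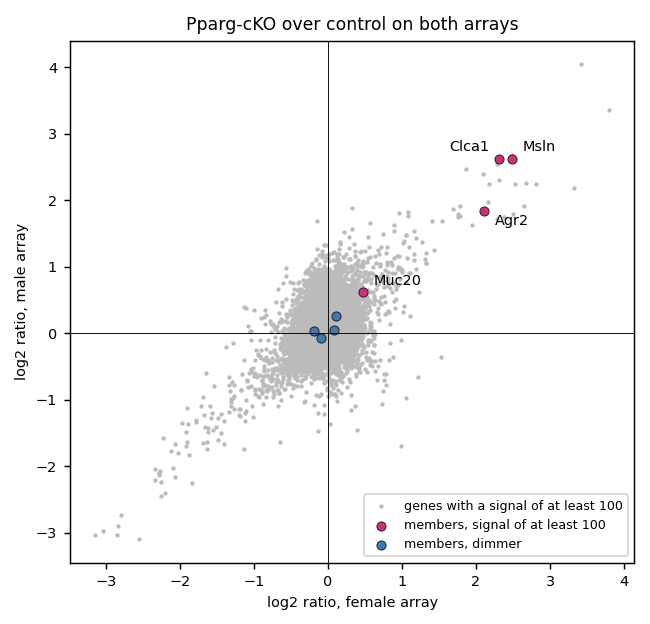
Log2 ratio of Pparg-cKO over control on the female (x) and male (y) arrays for 14015 genes that reach a signal of 100 on both arrays (grey) and for the 8 members (red where they reach that signal, blue where they are dimmer). Msln, Clca1 and Agr2 lie at the upper right with few other genes, Muc20 lies at the edge of the central cloud, and the dimmer members lie near 0.

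Pparg itself read 12357 and 6113 in the female and 12930 and 6688 in the male Pparg-cKO and control pools, a mean log2 ratio of 0.97 (adjusted p = 0.0373; 0.533 on the deposited table, at 1.00). Its probe is at chr6:115440213-115440272 on build mm9, and its place against the floxed exons was not analysed here. The study describes a transcript of the deleted allele that lacks these exons and is more abundant in the mutant, so a higher Pparg signal does not go against the deposited direction, and it gives no check of the deletion.

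Promoters from 250 bases before to 50 after the start were in the RefSeq table (GRCm38.p6) for Agr2, Clca2, Muc1, Muc4, Muc16 and Muc20. The letters AGGTCA, the half-site of many nuclear receptors, were found on neither strand in any of these 6 windows, against 16.3% of all 32851 promoters in the table. Msln and Clca1 are not among these genes, and 6 windows are too few to read anything from that difference.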

How the data were processed

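Per the file headers, the scanner files, made with Agilent Feature Extraction 10.7.3.1 according to the submitters' processing notes, held spot intensity: mean signal, median local background and a processed signal corrected for background and dye. Per the file headers, the log10 ratio in these files was computed by the scanner software from the red and green processed signals, and it entered no value here. The authors' deposited table held a score for each probe on each array, namely a fold change in which a decrease of N-fold is -N; ratios were put on the log2 scale here, and it served as an alternative and for the direction. The supplied table's scale was found from the processed signals, floored at 6.

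Each array held 174979 spots, 157716 of them not controls, with 4 spots per probe, 2.87% and 3.24% flagged as outliers and left out, and 0 saturated. Their number limits the precision. Signals were corrected by normexp (offset 50) and loess within arrays in limma 3.58.1 (R 4.3.3; weight 0 for control spots), and spots were averaged per probe. A gene was represented by its brightest probe; probes of 1 gene are given separately for members. Ratios of non-members were tested in limma (two-sided, Benjamini-Hochberg over 22499 genes well above background on at least 0.5 of the spots of 1 or both channels on both arrays, threshold 0.05), which called 86 genes higher and 83 lower (0.751%). The script was tested on simulated data. Figures were drawn with matplotlib 3.10.9.

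Members and gene lists were chosen with earlier results of these data known. Named were all members and their probes, list genes past the test or the fold rule, relatives and partners of members, the 5 genes nearest to Msln and to Clca1, and Pparg; other list genes, such as marker genes, were named after their values were seen. Alternatives were the scanner's processed signals, no offset, median centring, the median over probes, the deposited table, each array alone, brightness limits of 50 or none, a 2-fold threshold and no filter on dim probes.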

Additional observations from a re-analysis of the deposited data

Results flagged for a closer look

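Of 77 genes compared between the arrays, 2 were at least 1.2-fold changed in opposite directions. The log2 ratio of Krt8, a keratin of simple epithelia, was -0.28 (female) and 0.52 (male), a difference (male minus female) of 0.80. Lgals3, a galectin that binds mucin sugars, had -0.31 and 0.29, a difference of 0.60. With 1 array per sex neither difference was tested, and sex, dye orientation and array cannot be told apart.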

How the results depend on the processing

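Msln, Clca1 and Agr2 met the fold rule under each of the 10 alternatives, and Muc20 joined them on the male array alone, for 3 to 4 members with 1 array left out. The mean log2 ratios of Msln and Agr2 moved by less than their SD between the arrays under the 5 alternatives that keep both arrays. On the scanner's processed signals the mean log2 ratio was 3.97 for Clca1, 1.86 for Muc4, 0.28 for Tff3, -0.18 for Muc1 and -0.33 for Clca2. Without an offset it was 3.20 for Clca1, 0.45 for Muc4, 0.13 for Tff3 and -0.13 for Muc1. In the deposited table it was 4.03, 0.00, 0.44 and -0.18 for the same genes. For Muc4 these values carry no size, since 3 of the 4 pools were not well above background and every signal lay under the floor of 6 that matched the deposited table. Median centring gave -0.059 for Muc1. The median over all probes gave 0.32 for Muc20 and, through it, for the median of the members. All genes past the fold rule numbered 258, but 112 at 2-fold and 444 to 1253 on 1 array alone (male array 965 higher and 288 lower, female array 176 and 268); median centring called 115 higher and 102 lower, against 111 and 147. limma called 169 genes, 571 without an offset, 94 without a filter and 0 on the deposited table (2101 with an unadjusted p under 0.05). List genes called were 3, 12 without an offset and 0 on the deposited table (17 unadjusted), where Cldn3, Fxyd4 and Upk3b had an adjusted p of 0.533; without an offset Bpifb1 (adjusted p = 0.0114), Agr3, Cftr, Emx2, Fcgbp, Kcnn4, Krt18, Reg3g and Slc12a2 joined these, and on the processed signals Reg3g. The causes were not tested. No paired analysis was possible because each array is already a ratio of a pair of pools and holds the only group. Probes near background limit what can be said of Muc1, Muc4, Clca2 and Tff3.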
